A study of Homo sapiens with 6 samples.

Results

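The mitochondrially encoded subunits of complex I are the products of 7 genes of mt-DNA, MT-ND1, MT-ND2, MT-ND3, MT-ND4, MT-ND4L, MT-ND5 and MT-ND6. They were taken as the 7 genes with symbols starting with MT-ND among the 19330 genes counted, and all 7 passed the filter on low counts. The other mt-DNA-encoded open-reading frames (ORFs) in the counts are 6 genes of complexes III, IV and V.

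The counts come from K562 cells, a human cell line established from chronic myelogenous leukemia, transduced with lentivirus carrying Cas9 and sgRNAs. Control cells (sgCtrl, 3 libraries) received sgRNAs against olfactory receptor genes that K562 cells do not express, which the labels name as OR11A1 and OR2M49 (the study's methods write OR2M4 and also name sgRNAs against EGFP). N6AMT1-depleted cells (sgN6AMT1, 3 libraries) received sgRNAs against N6AMT1, a methyltransferase of the nucleus and cytosol. Both conditions went through the same puromycin selection and were collected at day 10 after infection, and each library came from its own transduction. No cloning step is described, and the labels do not say which sgRNA each library received. RNA was prepared from detergent lysates cleared by centrifugation, depleted of rRNA and made into stranded libraries, although the molecule field of the labels reads polyA RNA.

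Complex I (NADH:ubiquinone oxidoreductase) takes electrons from NADH, passes them to ubiquinone and pumps protons across the inner mitochondrial membrane. Its mtDNA-encoded subunits form the core of the membrane arm, while all of its other subunits are encoded in the nucleus. Human mt-DNA is transcribed as long polycistronic RNAs from each strand, and most mRNAs are released when the tRNAs lying between them are cut out, at their 5′ ends by RNase P and at their 3′ ends by RNase Z (ELAC2). Transcripts read from the heavy strand hold most of the mRNAs, and MT-ND6 is the only mRNA read from the light strand.

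In GRCh38 (GENCODE v44) the 6 heavy-strand members lie on the plus strand of mt-DNA, MT-ND1 at chrM:3307-4262, MT-ND2 at chrM:4470-5511, MT-ND3 at chrM:10059-10404, MT-ND4L at chrM:10470-10766, MT-ND4 at chrM:10760-12137 and MT-ND5 at chrM:12337-14148. MT-ND6 lies on the minus strand at chrM:14149-14673. Each is a single exon without introns. In 6 of the 7 genes a tRNA of the same strand lies directly before the start, with no base between them except 2 bases before MT-ND1, and the exception is MT-ND4, which begins within MT-ND4L. Directly after the end, 4 of the 7 are met by a tRNA of the same strand. The ends of these 4 are shown because the reading frame itself stops at the cut, with capitals marking the bases of an incomplete stop codon that polyadenylation completes, followed in lower case by the first 12 bases of the tRNA:
MT-ND1 (chrM:4245-4274): cattccccctcaaaccTAagaaatatgtct
MT-ND2 (chrM:5494-5523): ttatactaataatcttaTagaaatttaggt
MT-ND3 (chrM:10387-10416): gattagactgaaccgaaTtggtatatagtt
MT-ND4 (chrM:12120-12149): ttaccgggttttcctctTgtaaatatagtt

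The other 3 members end in a whole stop codon. The overlap of 7 bases between MT-ND4L and MT-ND4, in capitals below, holds the start codon of MT-ND4 and the stop codon of MT-ND4L, so counts of this pair depend on how reads on shared bases were assigned. MT-ND5 and MT-ND6 run toward each other and meet end to end, and their last 18 bases are given with the next 12 bases and the stop codon in capitals, each on its own strand:
MT-ND4L/MT-ND4 (chrM:10748-10778, plus strand): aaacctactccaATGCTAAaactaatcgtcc
MT-ND5 (chrM:14131-14160, plus strand): ctactcctaatcacaTAAcctattcccccg
MT-ND6 (chrM:14137-14166, minus strand): attgctcgggggaatAGGttatgtgattag

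The next heavy-strand gene after MT-ND5 is MT-CYB, 598 bases on, and MT-ND6 lies on the opposite strand within that gap. The sources used here do not say whether counting used the strand. Had it not, heavy-strand RNA running across this gap would be counted as MT-ND6 and could not be told apart from it. The coding strands also differ in composition, with 35.6% G in MT-ND6 against 9.5% to 12.1% in the heavy-strand members. Nuclear DNA holds 217 pseudogenes named as copies of MT-ND genes in GENCODE v44, and none of them is among the genes counted, so reads with a match in both genomes are a further uncertainty of the members' counts.

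Of the 19330 genes, 8324 were tested. Library totals were 742470 to 866894 counts in sgCtrl and 959319 to 5526904 in sgN6AMT1, where replicates 2 and 3 were the deepest. N6AMT1 was covered by 6, 5 and 9 reads in sgCtrl (replicates 1, 2 and 3, here as elsewhere in this order) and 0, 18 and 16 in sgN6AMT1, or 8.08, 5.77 and 10.4 against 0, 3.26 and 3.94 cpm (counts scaled to library size), with up to 3.13 cpm allowed by the count of 0. All 10 erythroid markers of K562 cells were detected, and their summed level was 11778 to 18628 cpm among the controls and 18987 to 34297 cpm among the depleted libraries, with HBE1, HBG1 and HBG2 past the threshold as higher. The 8 markers of other cell types summed to 154 to 181 cpm in sgCtrl and 105 to 165 cpm in sgN6AMT1, mostly from EPCAM, and MS4A1 had no count. The depth and the erythroid markers moved with the condition, and their part in the results was not tested.

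The transcripts of the complex I subunits encoded by mt-DNA were lower in N6AMT1-depleted cells. Their summed share of all counts was 2.03%, 1.59% and 1.26% in sgCtrl and 0.717%, 0.175% and 0.102% in sgN6AMT1. The groups did not overlap, and among the sgN6AMT1 libraries replicate 1 was nearest to the controls and replicate 3 farthest. The mean was 1.63 ± 0.384% in the controls and 0.331 ± 0.336% after depletion (SD, n = 3 each), a ratio of 4.91 (two-sided exact permutation test, p = 0.1, which is the lowest value 3 libraries against 3 can give). With sgN6AMT1 replicate 1 as the only depleted library, the difference was -0.911 percentage points against -1.30 with all 3. All 13 mt-DNA-encoded ORFs together went from 4.29 ± 1.03% to 1.07 ± 0.76% of all counts (SD, n = 3 each), a ratio of 4.02. The fall was thus not particular to the complex I subunits. In such bulk RNA, fewer cells with these transcripts and less of them in each cell cannot be told apart.

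In the edgeR fit over all genes, 6 of the 7 members passed the threshold as lower, where 4.76% of all genes tested did. All 7 log2 fold changes were negative, between -2.59 (MT-ND4L) and -1.14 (MT-ND6), with a median of -2.20 against 0.01 over all genes tested. The sgN6AMT1 libraries lay below every sgCtrl library for 6 of the 7, a pattern found in 14.1% of genes. With DESeq2, which gave log2 fold changes of -2.54 to -1.07, MT-ND4L was the only member called (adjusted p = 0.0414), where 3.48% of genes were called lower, and the adjusted p of the other 6 ran from 0.0528 to 0.441. With each library left out in turn, edgeR called 6 or 7 members. The median log2 fold change was -3.59 without sgN6AMT1 replicate 1 and -0.99 with it as the only depleted library, where 6 members still passed and 0.579% of all genes tested did as lower.

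**Figure D1:**
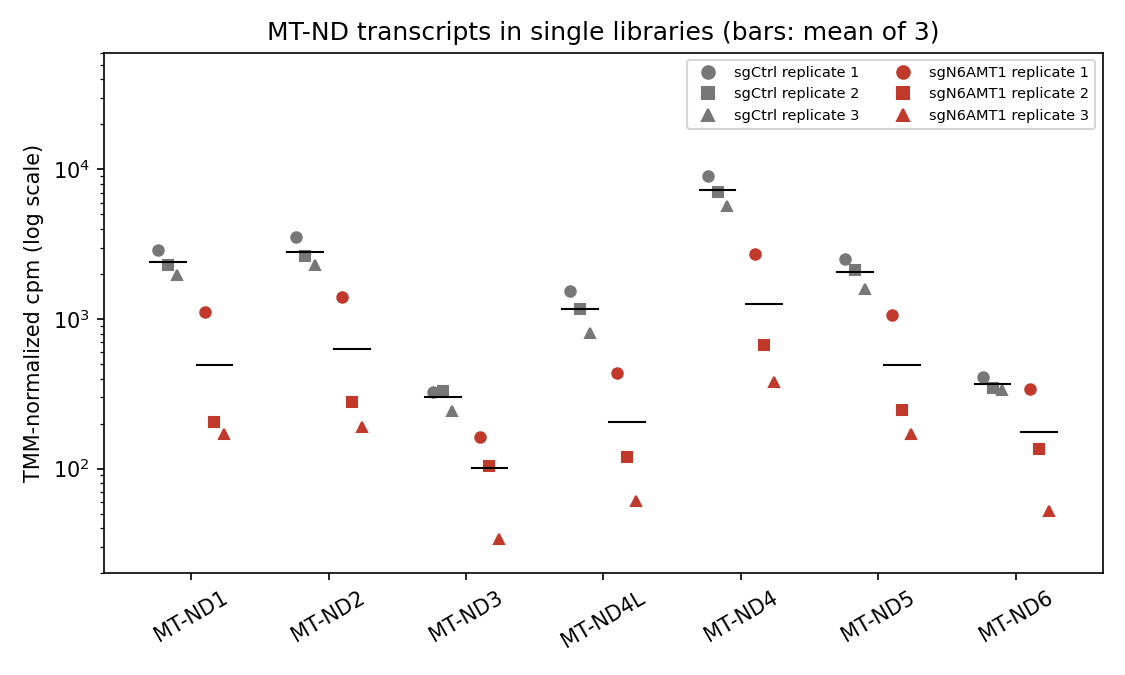
TMM-normalized cpm of the 7 MT-ND genes (log axis) in each library, grey for sgCtrl and red for sgN6AMT1, with a symbol per replicate and a bar at the mean of 3. For 6 genes all red points lie below all grey points, and for MT-ND6 sgN6AMT1 replicate 1, at 342, lies within the sgCtrl range of 337 to 413.

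MT-ND4 and MT-ND4L are made from a shared bicistronic mRNA. MT-ND4 encodes a proton-pumping subunit of the membrane arm and had the highest level per length of the 7 in every library. Its normalized counts (TMM-normalized cpm) were 9019, 7033 and 5665 in sgCtrl and 2724, 673 and 382 in sgN6AMT1. Each depleted library was below the lowest control, and replicates 2 and 3 lay far below replicate 1. Its log2 fold change was -2.54 (SE, the standard error, 0.46, adjusted p = 0.00238 by edgeR). MT-ND4L, which encodes a small subunit next to the pumping modules, had 1531, 1162 and 812 normalized counts in sgCtrl and 438, 120 and 61.2 in sgN6AMT1. The groups were apart in the same way, and its log2 fold change of -2.59 (SE 0.45, adjusted p = 0.00189 by edgeR) was the lowest among the 8324 genes tested. Per length, MT-ND4L stood at 0.787, 0.766 and 0.665 of the level of MT-ND4 in sgCtrl and at 0.747, 0.824 and 0.743 in sgN6AMT1. The groups overlapped, and the mean ratio differed by 0.031 (two-sided exact permutation test, p = 0.6), less than the spread between replicates.

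MT-ND2 and MT-ND5 encode the other proton-pumping subunits. MT-ND2 had 3545, 2622 and 2286 normalized counts in sgCtrl and 1411, 281 and 189 in sgN6AMT1. The highest depleted library was again replicate 1, still below each control, and the log2 fold change was -2.20 (SE 0.47, adjusted p = 0.00819 by edgeR). MT-ND5, the longest member at 1812 bases and the one that ends at MT-ND6 without a tRNA, had 2507, 2129 and 1597 normalized counts in sgCtrl and 1064, 248 and 172 in sgN6AMT1. Its groups did not overlap either, with a log2 fold change of -2.11 (SE 0.43, adjusted p = 0.00638 by edgeR).

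MT-ND1 and MT-ND3 encode subunits at the junction of the membrane arm with the matrix arm, where ubiquinone is reduced. MT-ND1 had 2912, 2289 and 1965 normalized counts in sgCtrl and 1111, 204 and 170 in sgN6AMT1, without overlap, and a log2 fold change of -2.31 (SE 0.46, adjusted p = 0.0051 by edgeR). MT-ND3 had the fewest counts of the heavy-strand members. Its normalized counts were 327, 329 and 242 in sgCtrl and 162, 105 and 33.9 in sgN6AMT1, the last from 132 counts, the smallest count of any member. Its groups were apart, its log2 fold change was -1.66 (SE 0.33, adjusted p = 0.005 by edgeR), and its fall was the smallest among the heavy-strand members.

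MT-ND6 encodes a small subunit of the membrane arm near that junction and is the light-strand member. Its normalized counts were 413, 348 and 337 in sgCtrl and 342, 135 and 52.2 in sgN6AMT1. Replicate 1 of sgN6AMT1 thus lay within the control range, while replicates 2 and 3 lay below it. The log2 fold change was -1.14 (SE 0.38, adjusted p = 0.0655 by edgeR), which did not pass. Without sgN6AMT1 replicate 1 it was -1.96 and passed (adjusted p = 1.36e-05 by edgeR), and with replicate 1 as the only depleted library it was -0.08.

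In single libraries the heavy-strand members were not lowered by equal amounts. Relative to the mean of sgCtrl on the log2 scale, the 6 lay within 0.52, 2.03 and 1.09 of each other in sgN6AMT1. In sgN6AMT1 replicate 2, MT-ND3 was at -1.5 while MT-ND1, MT-ND2, MT-ND4, MT-ND4L and MT-ND5 were between -3.53 and -3.04. In replicate 3 MT-ND3 was at -3.12 and the others between -4.22 and -3.57. In replicate 1 MT-ND3 was at -0.87, close to MT-ND5 at -0.94 and MT-ND2 at -0.97. MT-ND6 was at -0.09, -1.43 and -2.80 in these libraries, above the heavy-strand members in each.

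**Figure D2:**
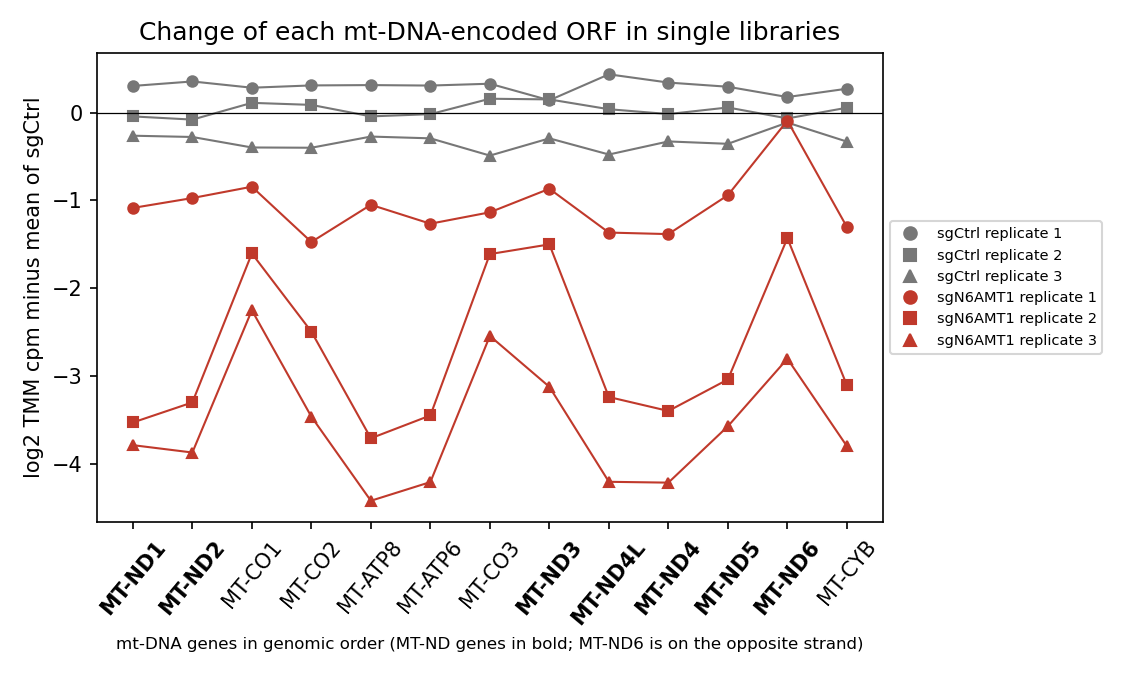
Log2 TMM-normalized cpm minus the mean of sgCtrl for the 13 mt-DNA-encoded ORFs in genomic order, a line per library, grey for sgCtrl and red for sgN6AMT1, with the 7 MT-ND genes in bold. Each gene is centred on its sgCtrl mean, which holds the grey lines near 0, and in sgN6AMT1 replicates 2 and 3 MT-CO1, MT-CO3, MT-ND3 and MT-ND6 stand above the other genes.

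The plot along mt-DNA shows no steady trend with position among the heavy-strand genes. Over the 12 heavy-strand ORFs, Spearman's rho between start position and log2 fold change was -0.22 and Pearson's r was -0.18, a description across genes that share libraries and precursor RNAs. MT-ND3 lies just after MT-CO3, with MT-TG between them, and MT-CO3 was at -1.14, -1.61 and -2.54 in sgN6AMT1. MT-ND4L follows MT-ND3 with only MT-TR between them and was at -1.37, -3.24 and -4.21. MT-ND3 and MT-ND4L, neighbours on the same precursor, thus differed more in replicates 2 and 3 than in replicate 1. MT-ND5, MT-ND6 and MT-CYB are neighbours across the change of strand. MT-CYB was at -1.30, -3.11 and -3.80 and MT-ND5 at -0.94, -3.04 and -3.57, with MT-ND6 above both in each library.

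The light-strand member was then compared with the heavy-strand members within each library. For every 100 counts on the 6 heavy-strand genes, MT-ND6 had 2.08, 2.24 and 2.68 in the controls and 4.96, 8.30 and 5.18 in sgN6AMT1. Each depleted library was above each control, replicate 1 included. The mean was 2.33 ± 0.313 in the controls and 6.14 ± 1.87 after depletion (SD, n = 3 each). On the log2 scale the ratio rose by 1.36 (two-sided exact permutation test, p = 0.1, the lowest possible). With each library left out in turn the difference ran from 1.13 to 1.5, and it was 1.09 with sgN6AMT1 replicate 1 as the only depleted library. Against MT-ND5, its neighbour, the difference was 1.08, without overlap. Against MT-ND3 the groups overlapped and the difference was 0.39 (two-sided exact permutation test, p = 0.2). Against all 12 heavy-strand ORFs it was 0.77. Relative to the log2 mean of sgCtrl, heavy-strand MT-CO1 was at -0.84, -1.60 and -2.25 in sgN6AMT1, and MT-CO3 at -1.14, -1.61 and -2.54. Both lay below MT-ND6 (-0.09, -1.43 and -2.80) in replicates 1 and 2 and above it in replicate 3. MT-CO2, MT-ATP6, MT-ATP8 and MT-CYB lay below MT-ND6 in each. A smaller fall was thus not particular to the light-strand gene.

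**Figure D3:**
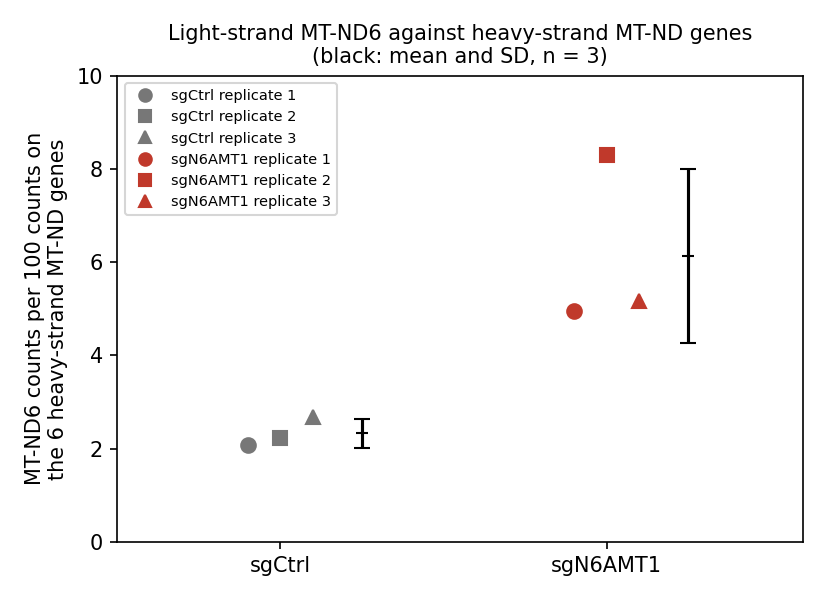
MT-ND6 counts per 100 counts on the 6 heavy-strand MT-ND genes in each library, with the mean and SD (n = 3) of each condition in black. All control points are at or below 2.68 and all points of depleted libraries at or above 4.96.

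As a share of all counts on the 13 ORFs, the 7 members made up 38.6%, 36.3% and 39.4% in sgCtrl and 37.4%, 21.4% and 22.0% in sgN6AMT1. Replicate 1 of sgN6AMT1 lay within the controls and replicates 2 and 3 far below them. The annotated length of the 7 is 55.8% of that of the 13. The 6 heavy-strand members took 37.2 ± 1.52% in the controls and 25.5 ± 8.84% after depletion (SD, n = 3 each). The difference, -11.8 percentage points, rests on replicates 2 and 3 (two-sided exact permutation test, p = 0.2). With replicate 1 as the only depleted library the difference was -1.57. Shares are bound to sum to 100%, so a lower share of some ORFs requires a higher share of others. MT-CO1 made up 20.0%, 21.3% and 20.0% in sgCtrl and 24.8%, 34.5% and 37.7% in sgN6AMT1.

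The members' own shares did not move alike. Among the 13 ORFs, 53.8% had shares that did not overlap between the conditions, and among the 7 members these were MT-ND4 and MT-ND4L, with lower shares, and MT-ND6, with a higher share. MT-ND4 made up 17.2%, 16.0% and 17.3% of the ORF counts in sgCtrl and 14.1%, 8.18% and 7.94% in sgN6AMT1. MT-ND6 made up 0.786%, 0.795% and 1.03% in sgCtrl and 1.77%, 1.64% and 1.08% in sgN6AMT1. The 95% Wilson intervals of sgCtrl replicate 3 (0.917% to 1.16%) and sgN6AMT1 replicate 3 (0.945% to 1.24%) overlap, so these libraries were not told apart at their depth. The shares of MT-ND1, MT-ND2, MT-ND3 and MT-ND5 overlapped between the conditions. Two-sided exact permutation tests gave p = 0.1 for MT-ND4, MT-ND4L and MT-ND6 and between 0.3 and 0.4 for the other 4, and no value of these 7 tests can pass in this design.

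**Figure D4:**
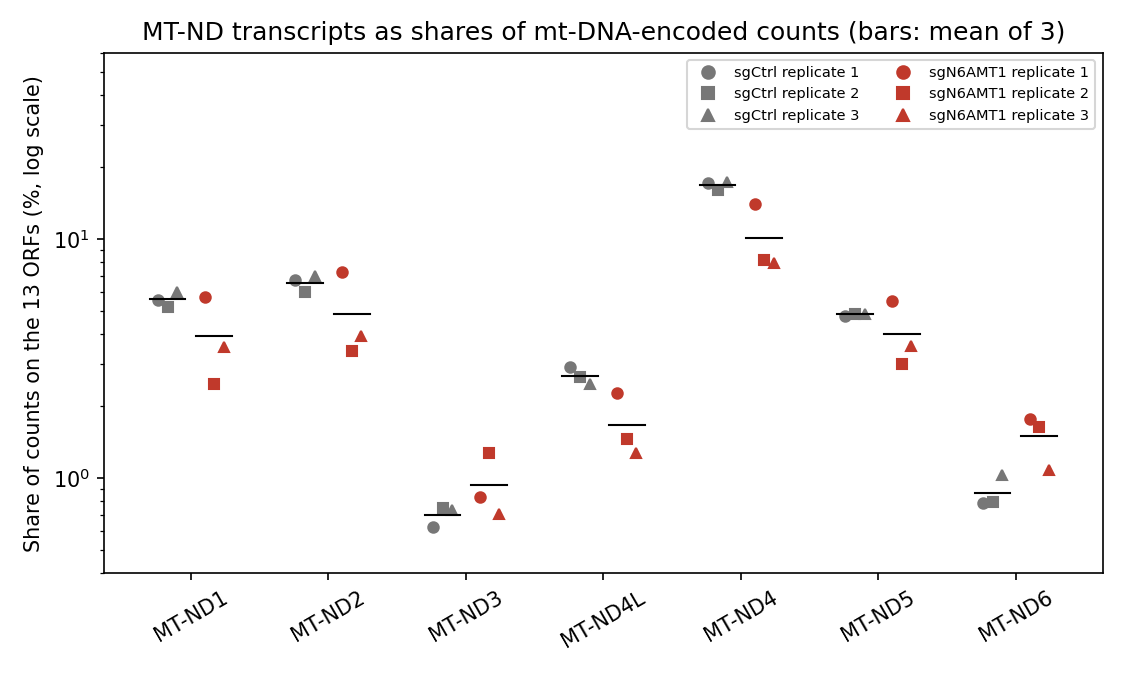
Share of the counts on the 13 mt-DNA-encoded ORFs taken by each MT-ND gene (percent, log axis) in each library, grey for sgCtrl and red for sgN6AMT1, with bars at the mean of 3. MT-ND4 and MT-ND4L are lower and MT-ND6 higher in all sgN6AMT1 libraries, while the other 4 genes overlap.

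Levels of different members were compared per length, as TMM-normalized cpm per kilobase. In each sgCtrl library the order was MT-ND4, MT-ND4L, MT-ND2, MT-ND1, MT-ND5, MT-ND3 and MT-ND6, with means of 5253 ± 1224, 3933 ± 1209, 2704 ± 626, 2499 ± 503, 1147 ± 252, 864 ± 144 and 697 ± 77.4 (SD, n = 3). Across libraries the ranges of neighbours in this order overlapped except between MT-ND1 (lowest 2056) and MT-ND5 (highest 1384). In sgN6AMT1, MT-ND4 and MT-ND4L stayed at the top in the 3 libraries, with means of 914 ± 926 and 695 ± 684. MT-ND6, the lowest member per length in the controls, was the fifth of the 7 in each sgN6AMT1 library, at 652, 258 and 99.4. In replicate 1 it was above MT-ND5 (587) and MT-ND3 (469), and in replicate 3 it differed little from MT-ND3 (98.1) and MT-ND5 (94.6). MT-ND3 moved to the third place in sgN6AMT1 replicate 2, at 302 against 269 for MT-ND2.

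The nuclear partners of the 7 subunits were called about as often as genes in general. Of 37 nuclear-encoded complex I subunits listed, 36 were counted and tested, of which 2 rose, 1 fell and 33 did not pass, and 9.85% of all genes tested were called in either direction. The median log2 fold change was 0.16 against -2.20 for the mt-DNA-encoded subunits. NDUFB2, an accessory subunit of the membrane arm, rose from 94.1 ± 16.7 to 156 ± 5.85 normalized counts (SD, n = 3 each, log2 fold change 0.73, SE 0.17, adjusted p = 0.0129 by edgeR). NDUFS4, an accessory subunit of the matrix arm, rose from 57.8 ± 6.49 to 89.1 ± 4.31 (0.62, SE 0.19, adjusted p = 0.0429 by edgeR). NDUFB11 was next, at 0.54 (adjusted p = 0.0581 by edgeR). NDUFA5, an accessory subunit of the matrix arm, dropped from 229 ± 6.34 to 125 ± 27.0 (-0.89, SE 0.17, adjusted p = 0.00389 by edgeR), and NDUFS6 and NDUFC1 followed at -0.48 and -0.33 without passing. NDUFA5 was the only subunit called by edgeR without sgCtrl replicate 1 or without sgCtrl replicate 2, where calls over all genes tested also fell, to 3.5% and 2.54%. With sgN6AMT1 replicate 1 as the only depleted library edgeR called none of the subunits and 1.38% of all genes tested.

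**Figure D5:**
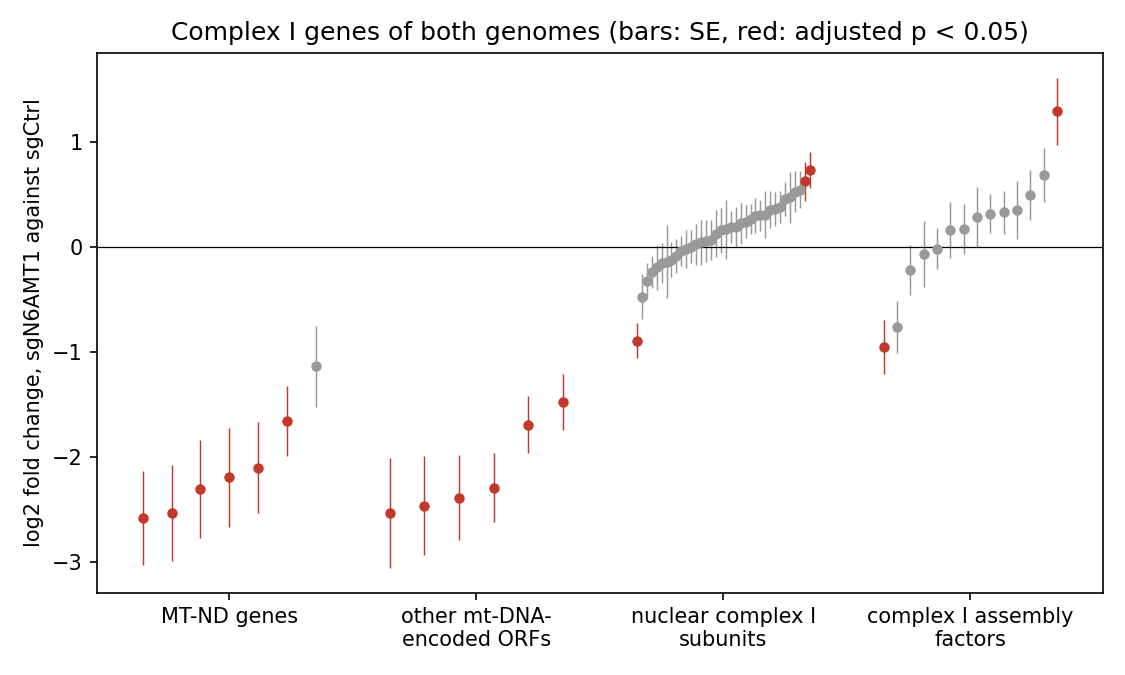
Log2 fold changes of sgN6AMT1 against sgCtrl with standard errors for the MT-ND genes, the other mt-DNA-encoded ORFs, the nuclear complex I subunits and the complex I assembly factors, each sorted by value, with genes past the adjusted threshold of 0.05 in red. The mt-DNA-encoded genes lie between -2.59 and -1.14 and the nuclear subunits between -0.89 and 0.73.

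Assembly factors help to join the membrane arm built on these 7 proteins to the matrix arm. Of 17 listed, 14 were tested, 1 rose and 1 fell, where 9.85% of all genes tested were called, and the median log2 fold change was 0.23. NDUFAF3 rose by 1.29 on the log2 scale (SE 0.32, adjusted p = 0.0167 by edgeR), from only 12, 14 and 16 counts in sgCtrl. Its normalized counts were 16.1, 16.2 and 18.9 in sgCtrl and 22.1, 44.9 and 51.7 in sgN6AMT1, where the deep replicates 2 and 3 were highest. NDUFAF2, which acts late in assembly, fell by 0.96 (SE 0.25, adjusted p = 0.0246 by edgeR).

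Nuclear genes that act on mt-RNA were read from a list of 26 symbols, of which 24 were tested, 1 rose and none fell by edgeR, where 9.85% of all genes tested were called. At an unadjusted p under 0.05, 3 were higher and 1 lower, where 26.2% of all genes tested passed in either direction, and the median log2 fold change was 0.02. The gene that rose was FASTK, whose mitochondrial form is needed for the MT-ND6 mRNA, from 30.4 ± 6.30 to 58.2 ± 25.1 normalized counts (SD, n = 3 each, log2 fold change 0.98, SE 0.30, adjusted p = 0.0422 by edgeR). GRSF1, which binds light-strand transcripts including that of MT-ND6, had 158 ± 21.0 and 164 ± 14.4 (0.05, SE 0.16, adjusted p = 0.889 by edgeR). FASTKD1, which acts on the MT-ND3 mRNA, was at -0.12 (adjusted p = 0.747 by edgeR). LRPPRC and SLIRP, which together stabilize heavy-strand mRNAs, were at -0.26 and 0.24 (adjusted p = 0.240 and 0.447 by edgeR). The RNase P subunits TRMT10C, HSD17B10 and PRORP (listed as KIAA0391) were at 0.13, 0.49 and 0.02 (adjusted p = 0.792, 0.0606 and 0.972 by edgeR).

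Likeness to the members was read as Pearson's r of log2 normalized counts over the 6 libraries, among 4156 nuclear genes with a mean of at least 50 normalized counts. The heavy-strand members correlated with each other at 0.925 to 0.999 and with MT-ND6 at 0.926 to 0.964. The other mt-DNA-encoded ORFs were about as close, at 0.94 to 0.9996 with the heavy-strand members and 0.905 to 0.95 with MT-ND6. Among the nuclear genes most like the mean of the 7 members were the gene listed as SOS 1 (r = 0.999), PIK3CB, HNRNPD and SRRM1, of which HNRNPD and SRRM1 encode RNA-binding proteins of the nucleus. SOS 1, HNRNPD and SRRM1 had log2 fold changes of -0.90, -1.61 and -1.40 and passed the threshold, while PIK3CB, at -0.51, did not. Most like MT-ND6 were RAB7A, KIF2A, SUMO2, CASC5 and GTF3C6, with r from 0.982 to 0.990 and log2 fold changes between -0.72 and -0.14. These values describe 6 libraries that differ in condition and depth, with no test.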

How the data were processed

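RNA-Seq libraries of K562 cells, 3 per condition, were analysed, and the groups and replicate numbers were taken from the sample labels. The authors trimmed reads with cutadapt (minimum length 15, quality cutoff 2), mapped them with HISAT2 to GRCh38 and overlapped them with the genes of release 84. The deposited values are raw counts per gene without normalization. The counting tool, its strand setting and its treatment of reads with several matches are not given in the sources used here.

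All 19330 genes were fitted together with edgeR 4.0.16 (R 4.3.3): filterByExpr at its defaults, TMM factors, glmQLFit and glmQLFTest without covariates, with Benjamini-Hochberg adjustment over the 8324 genes that passed and a threshold of 0.05. The common biological coefficient of variation was 0.16. Normalized counts are TMM-normalized cpm, and levels per length are these divided by the annotated gene length in kilobases. For shares and ratios, two-sided exact permutation tests over libraries were used (Python 3.11.15, scipy 1.17.1). Intervals of shares are 95% Wilson intervals and, like the limit of 3 counts read from a count of 0, cover counting error only. Library totals ran from 742470 to 5526904 counts.

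The 7 MT-ND genes, the gene lists and the rule for named genes were chosen with earlier results of these data known. Named are the members, other mt-DNA-encoded ORFs where a share or an order turns on them, genes of the lists past the threshold, the 3 highest and 3 lowest nuclear complex I subunits, GRSF1, FASTK, FASTKD1, LRPPRC, SLIRP and the RNase P subunits, and the 5 nuclear genes most like the members, and most like MT-ND6, over the libraries, with 1 exception that is not reported here. Alternatives were DESeq2 1.42.0, other scalings and filters, thinning of the 2 deepest libraries to 858710 counts, a replicate block, other denominators, and each library left out. The fit without both deep sgN6AMT1 libraries was added after the data were seen. The edgeR fit was tested on simulated counts with known changes. Gene positions are from GENCODE v44 and sequences from the mt-DNA of GRCh38 (16569 bases).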

Additional observations from a re-analysis of the deposited data

How the results depend on the processing

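Every log2 fold change of the 7 members was negative in each of the 15 alternative fits. The number of members called was 1 with DESeq2 and 6 or 7 in the others, leaving aside the fit without both deep sgN6AMT1 libraries. That fit holds 1 depleted library, so its calls carry no spread among depleted libraries. Thinning the deep libraries or dropping the filter on low counts called 7. Nuclear complex I subunits called ranged from 1 to 4 with each library left out, against 3, and were 0 without both deep libraries. Without those libraries the difference in the share of all counts was -0.911 percentage points (-1.49 to -1.10 with each library left out), and that of the heavy-strand members within the ORFs was -1.57 (-16.8 to -8.92). The log2 ratio of MT-ND6 was 0.773 higher against all 12 heavy-strand ORFs, and 1.13 to 1.5 higher with each library left out. The causes were not tested.

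The labels give both conditions replicate numbers 1 to 3. Deviations of same-numbered libraries from their condition means correlated at -0.00052, 0.083 and 0.19. Those of differently numbered libraries correlated at -0.19 to 0.14. The numbers were not taken as pairs, though these values do not settle the matter. With the replicate number as a block, 7 members and 6 of the 36 nuclear complex I subunits were called, and MT-ND6 passed at -1.42. Calls over all genes tested rose as well, to 1195 of 8324 against 820 without the block. Within replicate numbers the mean differences were -1.30 percentage points, -11.8 percentage points and 1.36 on the log2 scale, each with p = 0.25 by an exact sign-flip test, the smallest that 3 numbers allow. DESeq2 tested more genes than edgeR. Among the 7 members, MT-ND3 in sgN6AMT1 replicate 3, with 132 counts, has the least depth. Some nuclear genes named here rest on fewer counts, such as NDUFAF3 with 12, 14 and 16 in sgCtrl.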
